A study of Mus musculus with 8 samples.

Results

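The 200 bp tiles described here lie in the interior of genes. Each lies wholly inside the annotated span of a protein-coding gene of chromosomes 1 to 19 in GRCm38 (mm10) and more than 5 kb from both ends of every protein-coding gene. Of 52403 distinct autosomal tiles that the authors listed as gaining or losing methylation in any of 4 comparisons, 14294 (27.3%) met that rule. Another 21468 lay within 5 kb of a gene end and 16641 lay outside genes. The rule used position alone and no direction or size of a methylation difference, although every tile comes from the authors' lists, which start at 20 points.

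The tiles come from reduced representation bisulfite sequencing (RRBS, a readout of DNA methylation in CpG-rich restriction fragments) of organoids grown from the first 2.5 cm of the colon of male mice about 40 days old. The mice were heterozygous for a Cre-activable BrafV600E allele (Braf+/LSL), which every library carries. In the first comparison, organoids in which lentiviral Cre had switched on BrafV600E, kept for 5 months and selected in Base medium without stem-cell niche factors, were set against organoids that had received the empty lentiviral backbone (EV) and stayed in full medium for 5 months. In the second, EV organoids cultured for 12 months (line 1) or 14 months (line 3) in full medium were set against EV organoids of the same line at 2 months. A final culture of 3 weeks is labelled for all 8 libraries.

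The oncogene and the change of medium cannot be told apart in the first comparison. Lines 1 and 3 are the only replicates, and each deposited table compares 1 library with 1 library, so each value is given for both lines. No test over the 2 lines was made, because an exact sign-flip test over them cannot give a p below 0.5 and the lists hold only differences past a threshold. Tiles entered the authors' lists with a difference of 20 points or more and a q-value up to 0.01. The terms gain and loss below mean a tile listed as higher or lower in the BrafV600E or the long-cultured library. An unlisted tile may be unchanged or uncovered, read depth is unknown, and the starting level is not used here: methylation that is absent at first cannot be lost, and a tile methylated throughout cannot gain. The source name of the line 1 BrafV600E library names line 3, and the 14-month library carries a tag of 2 months. The titles were followed for both. The tables hold no expression, so the tissue label could not be checked against marker genes.

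Methylation inside genes differs from that at gene starts. CpG islands at active or poised promoters are usually unmethylated, whereas the body of a transcribed gene is usually methylated, and loss there is a familiar feature of long culture and of tumours. Gene bodies also hold CpG islands of their own, some of which are starts of shorter transcripts or of microRNAs, and these can gain methylation as promoters do.

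The starts of shorter transcripts are described next. No annotation of CpG islands was used, so these starts cannot be taken as islands. The RefSeq promoter table of GRCm38.p6 places 2053 protein-coding transcript starts of 1521 genes inside gene interiors. Of the 14294 interior tiles, 13804 lay on the chromosomes that this table covers. Below are the 250 bases before 8 such starts, 5′ to 3′ on the strand of transcription, with every CpG, the site that can be methylated, in capitals. At least 100 bp of a listed tile overlaps each window with its start. They are shown because the tile changed in the same direction in both lines of a comparison: gained with BrafV600E (Akap7, Csrp1), gained with long culture (Maneal, Stk32c), gained in all 4 tables (Car7, Begain) or lost with BrafV600E (Elavl2, Nkain2).
Akap7, chr10:25200150-25200399, minus strand: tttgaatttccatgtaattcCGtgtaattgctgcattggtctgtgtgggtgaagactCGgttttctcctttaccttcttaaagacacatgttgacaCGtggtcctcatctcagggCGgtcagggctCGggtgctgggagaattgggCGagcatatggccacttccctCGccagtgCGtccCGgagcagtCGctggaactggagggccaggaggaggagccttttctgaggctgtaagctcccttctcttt
Csrp1, chr1:135728917-135729166, plus strand: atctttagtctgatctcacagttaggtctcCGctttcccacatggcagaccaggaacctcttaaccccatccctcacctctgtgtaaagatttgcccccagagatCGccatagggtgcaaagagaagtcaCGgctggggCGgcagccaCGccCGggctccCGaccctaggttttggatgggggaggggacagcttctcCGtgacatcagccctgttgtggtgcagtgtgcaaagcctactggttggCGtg
Maneal, chr4:124862172-124862421, minus strand: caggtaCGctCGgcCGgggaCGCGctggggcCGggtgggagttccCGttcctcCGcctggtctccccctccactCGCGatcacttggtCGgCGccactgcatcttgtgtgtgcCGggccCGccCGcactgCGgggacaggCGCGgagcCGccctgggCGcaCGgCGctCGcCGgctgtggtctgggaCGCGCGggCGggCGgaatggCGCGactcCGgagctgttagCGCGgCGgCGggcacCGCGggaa
Stk32c, chr7:139188495-139188744, minus strand: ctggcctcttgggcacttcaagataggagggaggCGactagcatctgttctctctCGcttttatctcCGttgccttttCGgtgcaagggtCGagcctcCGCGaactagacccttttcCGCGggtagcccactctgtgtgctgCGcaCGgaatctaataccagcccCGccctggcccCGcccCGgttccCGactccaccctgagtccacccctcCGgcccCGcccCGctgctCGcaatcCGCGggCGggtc
Car7, chr8:104541059-104541308, plus strand: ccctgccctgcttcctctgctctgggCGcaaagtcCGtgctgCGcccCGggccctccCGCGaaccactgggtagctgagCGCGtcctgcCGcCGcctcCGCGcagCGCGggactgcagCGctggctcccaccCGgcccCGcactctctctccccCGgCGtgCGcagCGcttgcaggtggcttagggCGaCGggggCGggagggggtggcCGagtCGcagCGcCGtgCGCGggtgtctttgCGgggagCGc
Begain, chr12:109053317-109053566, minus strand: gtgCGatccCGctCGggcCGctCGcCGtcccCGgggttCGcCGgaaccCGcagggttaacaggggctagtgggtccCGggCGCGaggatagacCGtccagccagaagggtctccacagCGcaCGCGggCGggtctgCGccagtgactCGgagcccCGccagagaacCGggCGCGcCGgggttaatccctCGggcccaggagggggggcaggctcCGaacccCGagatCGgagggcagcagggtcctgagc
Elavl2, chr4:91372041-91372290, minus strand: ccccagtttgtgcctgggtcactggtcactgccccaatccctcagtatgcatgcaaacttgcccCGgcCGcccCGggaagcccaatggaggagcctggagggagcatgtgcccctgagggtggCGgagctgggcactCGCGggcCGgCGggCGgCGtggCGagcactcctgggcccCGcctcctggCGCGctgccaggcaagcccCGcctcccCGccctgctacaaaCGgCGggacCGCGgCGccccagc
Nkain2, chr10:32889916-32890165, minus strand: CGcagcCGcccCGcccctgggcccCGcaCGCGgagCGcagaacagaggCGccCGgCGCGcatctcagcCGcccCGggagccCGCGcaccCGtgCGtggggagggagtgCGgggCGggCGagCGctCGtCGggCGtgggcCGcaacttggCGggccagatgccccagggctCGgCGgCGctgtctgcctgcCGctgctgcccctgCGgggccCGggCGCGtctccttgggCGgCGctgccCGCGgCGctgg

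The windows differ widely in CpG content. Csrp1, which encodes a LIM-domain protein of the actin cytoskeleton, has 9 CpGs in its 250 bases, and Akap7, an anchor of protein kinase A, has 10. The windows of Maneal and Nkain2 have 38 and 39. In the authors' deposited tables the Csrp1 tile gained 82.8 points with BrafV600E in line 1 and 57.7 in line 3. The tile of Akap7 that overlaps the window most gained 78.8 and 66.7. Neither tile was listed with long culture. The Maneal tile gained 61.0 and 52.5 points with long culture and, with BrafV600E, 37.5 points in line 1 alone. Stk32c, which encodes a serine/threonine kinase, gained 89.9 and 52.4 points with long culture at 1 tile of its window. At Car7, a carbonic anhydrase gene, 1 tile gained 42.1 and 39.4 points with BrafV600E and 35.1 and 49.2 with long culture, so all 4 values had the same sign. At Begain, which encodes a protein of the synapse, the 4 gains were 59.2, 24.6, 35.2 and 67.1. Elavl2, a gene for a neuronal RNA-binding protein, went opposite ways: its tile lost 42.2 and 25.8 points with BrafV600E and gained 33.9 and 23.4 with long culture. At Nkain2 the loss with BrafV600E was 20.4 points in line 1 and 94.1 in line 3, and the same tile was listed at -33.1 points with long culture in line 1 alone.

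**Figure D1:**
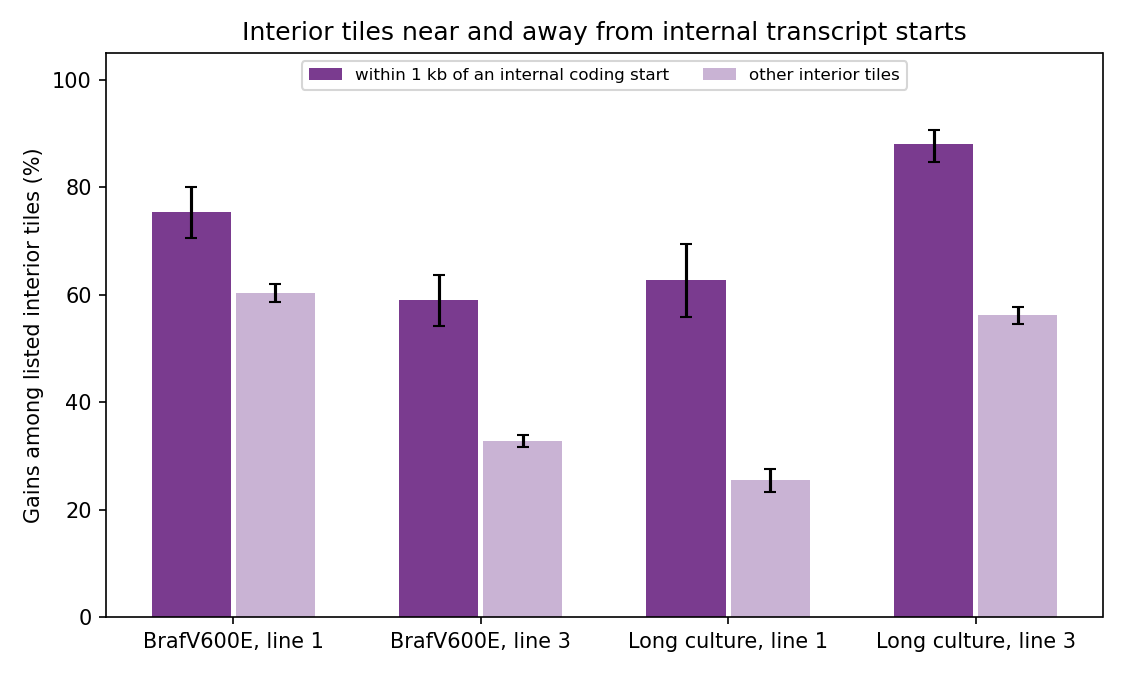
Percentage of listed interior tiles that were gains (y axis, %) for each comparison and line, split by whether the tile lay within 1 kb of a protein-coding transcript start inside a gene interior. Bars are shares and whiskers exact 95% binomial intervals; the dark bar is above the pale bar in each of the 4 tables, by the least in line 1 with BrafV600E (75.4% against 60.3%).

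Interior tiles near these internal starts were more often gains than the other interior tiles in all 4 tables. There were 896 distinct tiles within 1 kb of an internal start. With BrafV600E in line 1, 252 of 334 such tiles were gains (75.4%, exact Clopper-Pearson 95% interval 70.5 to 80.0), against 60.3% (58.7 to 62.0) of the 3369 other interior tiles. In line 3 the shares were 59.0% (54.2 to 63.7) and 32.7% (31.7 to 33.8). With long culture they were 62.8% (55.8 to 69.4) and 25.4% (23.3 to 27.6) in line 1, and 88.0% (84.8 to 90.7) and 56.2% (54.6 to 57.7) in line 3. In no table did the intervals overlap. These and all later intervals cover counting error only, and neighbouring tiles are not independent. The split by internal starts was chosen after the data had been seen, and tiles counted as away may lie near starts that the table does not hold. Tiles near the starts of long non-coding RNAs, 318 in all, showed the same order. Of these, 70.6%, 48.8%, 63.9% and 80.1% were gains in BrafV600E line 1, BrafV600E line 3, long culture line 1 and long culture line 3. The other tiles had 61.5%, 33.8%, 28.4% and 59.0%, with overlapping intervals in BrafV600E line 1.

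CpG content went with listing more than with direction. The 300 bp windows of the promoter table (250 bases before and 50 after a start) had a median of 14 CpGs over all 20085 protein-coding windows. Among the 2053 that start in gene interiors the median was 6, and among the 259 of these that a listed interior tile overlapped it was 19. Windows with gains only had medians of 20, 19, 25 and 24 CpGs in the 4 tables in the order above, and windows with losses only had 16, 16, 28 and 23. The assay itself reads CpG-rich fragments.

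The balance of gains and losses in gene interiors differed between the lines in both comparisons. With BrafV600E, 2373 of 3840 listed interior tiles were gains in line 1 (61.8%, 60.2 to 63.3) and 2937 of 8565 in line 3 (34.3%, 33.3 to 35.3). Over all listed autosomal tiles of the same tables the shares were 67.6% and 40.4%. With long culture, 577 of 1938 were gains in line 1 (29.8%, 27.7 to 31.9) and 2770 of 4635 in line 3 (59.8%, 58.3 to 61.2), beside 41% and 71.8% over all tiles. Line 1 therefore had mostly gains with BrafV600E and mostly losses with long culture, and line 3 the reverse. As the 2 lines lay above and below 50% respectively, these counts give no direction for either condition.

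**Figure D2:**
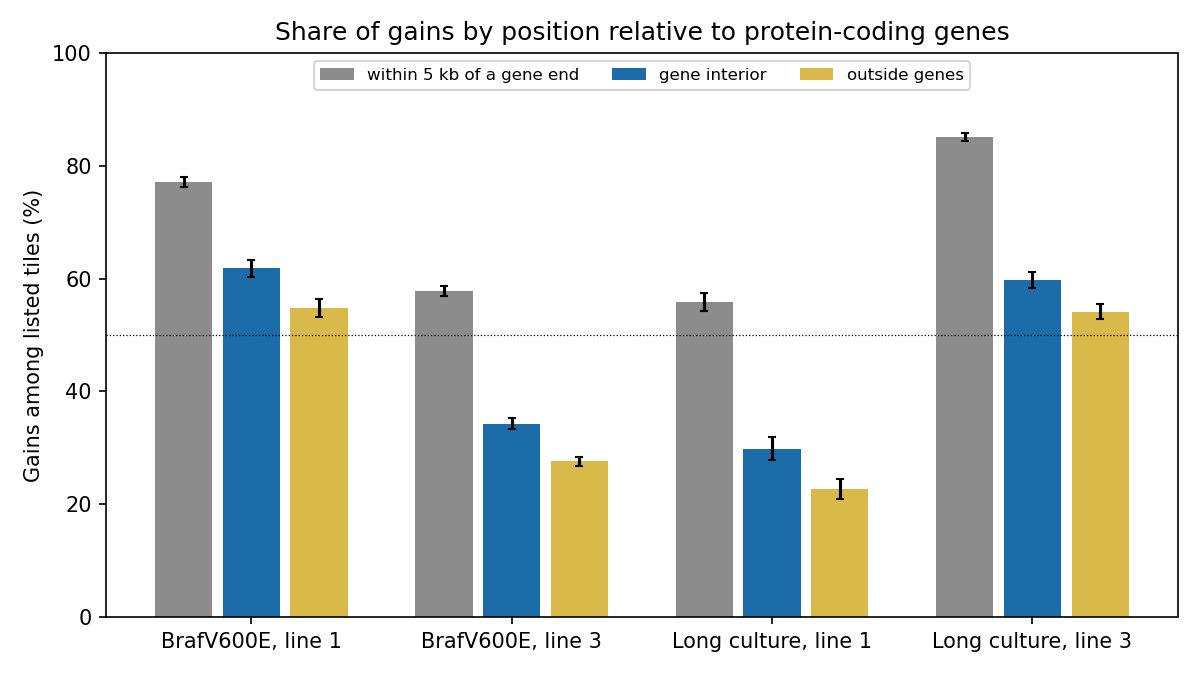
Percentage of listed autosomal tiles that were gains (y axis, %) in each of the 4 tables, for tiles within 5 kb of a protein-coding gene end, in gene interiors and outside genes. Bars are shares, whiskers exact 95% binomial intervals and the dotted line an even split; in every table the interior bar lies between the other 2, for example 34.3% between 57.8% and 27.6% with BrafV600E in line 3.

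What both lines and both comparisons shared was the order of the positions. In each of the 4 tables the share of gains in gene interiors was below that within 5 kb of gene ends and above that outside genes. Within 5 kb of gene ends it was 77.1% and 57.8% with BrafV600E in lines 1 and 3, and 55.8% and 85.1% with long culture. Outside genes it was 54.8% and 27.6%, then 22.6% and 54.1%. The intervals of interior and gene-end tiles did not overlap in any table, nor did those of interior and outside tiles.

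Listed differences in interiors were large in both directions, as they were outside genes. The median interior gain was 45.8 and 48.4 points with BrafV600E in lines 1 and 3 and 42.2 and 43.4 with long culture. Interior losses had medians of -47.2 and -47.7 points with BrafV600E and -49.1 and -47.0 with long culture. Gene-end tiles had medians nearer to 0, for example 40.5 for gains and -39.8 for losses with BrafV600E in line 1, except that gains with long culture in line 3 had 43.9 there. Tiles outside genes had medians near the interior ones. For gains these were 44.8 and 46.7 with BrafV600E in lines 1 and 3, and 47.2 and 45.3 with long culture. For losses they were -45.9 and -48.4 with BrafV600E, and -50.2 and -47.4 with long culture. All these medians hold only what passed the limit of 20 points.

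**Figure D3:**
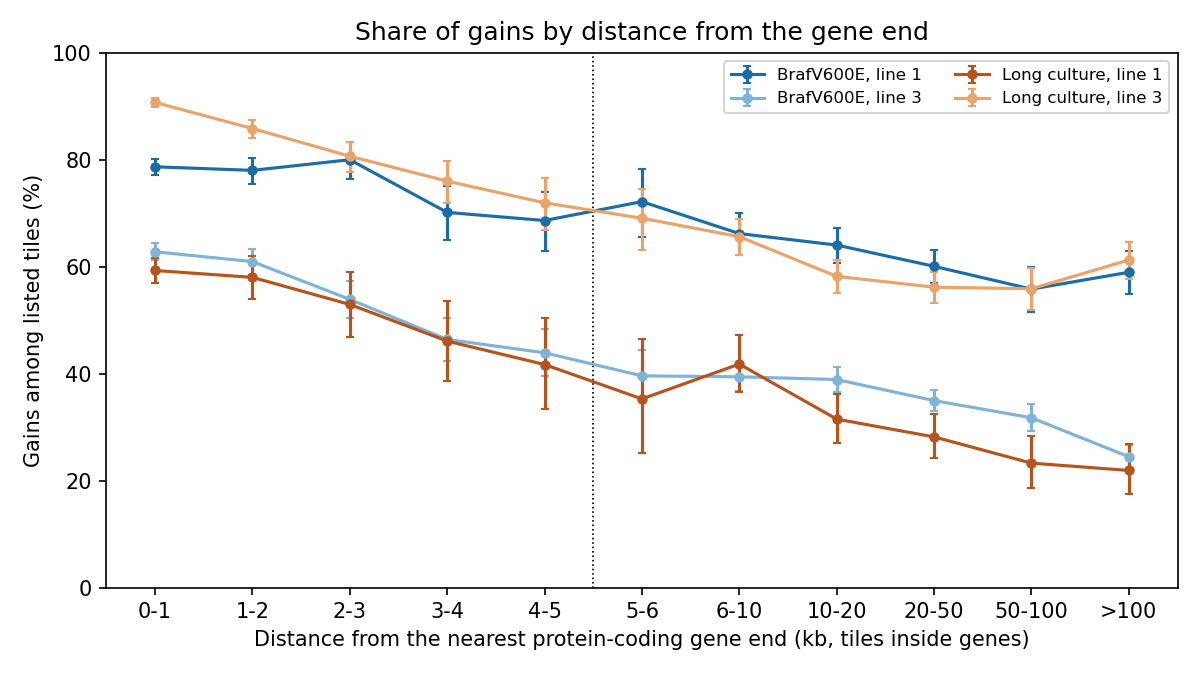
Percentage of listed tiles inside genes that were gains (y axis, %) against distance from the nearest protein-coding gene end (x axis, kb in unequal bins). Points are shares, whiskers exact 95% binomial intervals and the dotted line the 5 kb limit of the interior; with BrafV600E in line 3 the share goes from 62.8% under 1 kb to 24.5% beyond 100 kb.

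The share of gains declined with depth into the gene and crossed the 5 kb limit without a step. With BrafV600E it was 78.7% at 0 to 1 kb from the gene end in line 1 and 62.8% in line 3. Just outside the limit, at 4 to 5 kb, it was 68.7% and 43.9%. Just inside, at 5 to 6 kb, it was 72.2% and 39.6%. Beyond 100 kb it was 59.0% and 24.5%. With long culture the shares at 0 to 1 kb were 59.3% in line 1 and 90.8% in line 3. At 4 to 5 kb they were 41.7% and 72.0%, at 5 to 6 kb 35.3% and 69.1%, and beyond 100 kb 21.9% and 61.3%. In both tables with mostly gains the lowest share was at 50 to 100 kb, at 55.8% and 55.9%, and the share beyond 100 kb was higher, with overlapping intervals. The median interior tile lay 27.1 kb from the nearest gene end.

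Direction along the gene could be read for 11052 interior tiles of 3202 genes with a known strand and no second gene. Cutting each gene into 5 equal parts from its 5′ end, gains made up 65.7% of listed interior tiles in the first part and 59.5% in the last with BrafV600E in line 1, with overlapping intervals. In line 3 the shares were 39.4% and 28.9%, and there each part had a lower share than the one before it. With long culture they were 67.0% and 56.1% in line 3, and in line 1 the first part had 30.4%, within an interval that overlapped that of the last.

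Gained interior tiles lay in runs more than lost ones did. When tiles of 1 table within 500 bp of each other were joined, a gained region held 1.22 and 1.20 tiles on average with BrafV600E in lines 1 and 3, and a lost region 1.08 and 1.10. With long culture the values were 1.23 and 1.36 for gained and 1.04 and 1.03 for lost regions. Of the 177 regions of at least 3 tiles in long culture line 3, 175 were gained and 2 lost. With BrafV600E in line 3, where losses were in the majority, 93 of 147 such regions were gained. The longest regions held 12 tiles, in BrafV600E line 1 and in long culture line 3.

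The tiles spread over many genes. They fell in 4176 of the 13062 protein-coding genes whose interior could hold a tile (32%), with 14212 in exactly 1 gene and 82 in overlapping genes. Of the 4176, 1820 held a single listed tile and 302 held at least 10, together 4983 tiles. Long genes held more: the median span was 71.5 kb with a listed tile and 26.4 kb without, and Spearman's rho between interior length and listed tiles was 0.469 across 13062 genes, which are not independent replicates. Most tiles, 10533, were listed in a single table.

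Where both lines listed the same interior tile with BrafV600E, the direction was mostly the same. Of 1488 such tiles, 677 gained in both lines and 435 lost in both, so 74.7% (72.4 to 76.9) had 1 direction, beside 74.1% over all listed autosomal tiles. The remaining tiles were 279 with a gain in line 1 and a loss in line 3 and 97 with the opposite pair. The shared tiles were 38.8% of the line 1 list and 17.4% of the line 3 list. With long culture, 574 tiles were shared (29.6% and 12.4% of the lists), with 248 gains in both and 145 losses in both, or 68.5% (64.5 to 72.3) in 1 direction beside 68.7% over all tiles. Of those that differed, 156 lost in line 1 and gained in line 3 and 25 did the reverse. Both shares lay near those over all tiles.

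**Figure D4:**
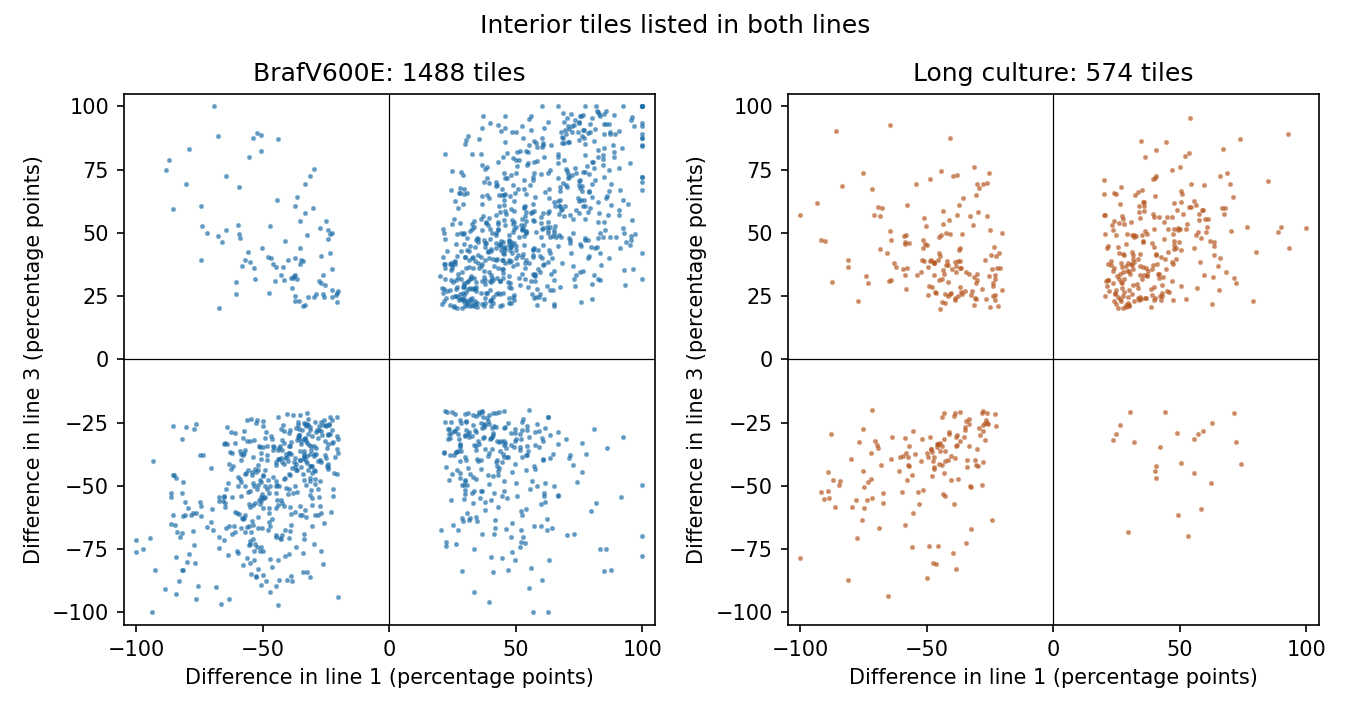
Methylation difference of each interior tile in line 1 (x axis, percentage points) against line 3 (y axis, percentage points), for the 1488 tiles listed in both lines with BrafV600E (left) and the 574 with long culture (right). The empty cross around 0 is the authors' limit of 20 points; gains in both lines (upper right) number 677 on the left and 248 on the right, and losses in both (lower left) 435 and 145.

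The comparisons did not share a direction within a line. They use 4 different libraries of a line, with no common control. In line 1, 500 interior tiles were listed with both BrafV600E and long culture, and 50.8% (46.3 to 55.3) had 1 direction, beside 48.9% over all tiles. In line 3, 1425 were listed in both and 45.7% (43.1 to 48.3) had 1 direction, beside 52.1%. The most frequent pair in line 3 was a loss with BrafV600E and a gain with long culture, at 513 tiles, and in line 1 it was a gain with BrafV600E and a loss with long culture, at 198.

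Genes were next called by their interior tiles. A gene counted as gained in a line if at least 1 interior tile gained and none lost, as lost in the reverse case, and otherwise as mixed. With BrafV600E, 316 of the 4176 genes were gained in both lines (7.57%), 248 were lost in both (5.94%) and 301 had opposite calls. With long culture 104 were gained (2.49%), 178 were lost (4.26%) and 189 were opposite. A call in both lines did not always rest on a common tile. At least 1 tile was listed in both lines for 75.3% of the genes gained and 63.3% of those lost with BrafV600E, and for 68.3% and 37.6% with long culture.

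**Figure D5:**
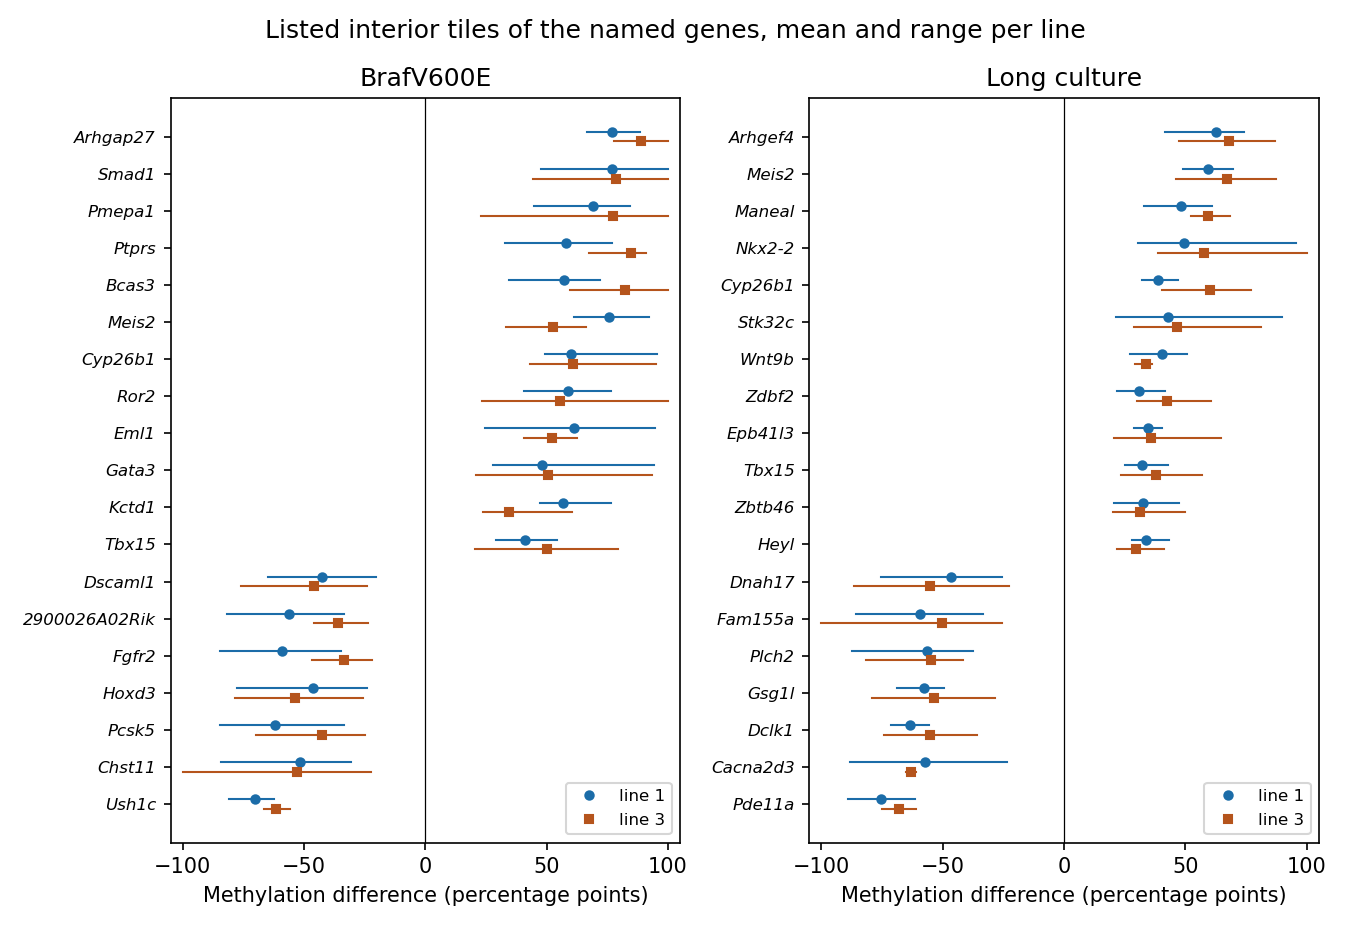
Mean methylation difference (x axis, percentage points) of the listed interior tiles of the 12 genes that gained with the most tiles in both lines and of 7 of the 8 that lost with the most, for BrafV600E (left) and long culture (right). Circles are line 1, squares line 3, and bars run from the lowest to the highest tile; all bars stay on 1 side of 0, as the choice of genes requires.

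The 12 genes with the most interior gains with BrafV600E in both lines were described one by one, and their functions were not compared with a background. Cyp26b1, which encodes a retinoic acid-degrading enzyme, had 7 gained tiles in line 1, which averaged 59.9 points in the authors' deposited table, and 10 in line 3 with a mean of 60.8. All lay between 7.7 and 10.1 kb from the nearest gene end at chr6:84583601-84586200, and 7 were listed in both lines. Gata3, a zinc finger transcription factor gene, had 7 and 11 gained tiles with means of 48.0 and 50.5 points over chr2:9871801-9882800. Meis2 and Tbx15, a homeobox and a T-box gene, gained 75.7 and 52.5 points, and 41.0 and 50.1 points. No listed interior tile of these genes lost methylation with BrafV600E in either line, which their choice required.

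Ror2, a receptor for WNT5A, gained at 6 tiles in line 1 and 11 in line 3 with means of 58.8 and 55.3 points. Pmepa1, whose product limits TGF-beta signalling, gained at 6 and 11 tiles with means of 69.1 and 77.5. Smad1, which carries BMP signals to the nucleus, gained at 4 and 5 tiles with means of 77.0 and 78.6. A tile of Smad1 at chr8:79372001-79372200, 27.2 kb inside the gene, was listed at 100 points in both lines, the most a tile can gain. Arhgap27 had means of 76.9 and 88.9 points over 4 and 5 tiles, 4 of them listed in both lines. Ptprs, a receptor tyrosine phosphatase, had 58.1 and 84.7. The others were Eml1 (61.2 and 52.1), Bcas3 (57.2 and 82.4) and Kctd1 (56.5 and 34.6).

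Of the 8 genes with the most interior losses with BrafV600E in both lines, Dscaml1, a cell adhesion gene of 326 kb, had 6 lost tiles in line 1 and 14 in line 3, with means of -42.7 and -45.9 points and 4 tiles in common. Fgfr2, a fibroblast growth factor receptor that signals through the RAS and MAPK cascade in which BRAF acts, lost at 5 tiles in each line with means of -59.2 and -33.7. Ush1c encodes harmonin, a scaffold of the brush border, and lost at 3 tiles in each line with means of -70.3 and -61.4. Chst11, a chondroitin sulfotransferase gene, lost at 3 tiles in line 1 and 17 in line 3, with means of -51.8 and -52.9. They also included Hoxd3 (-46.1 and -53.7), the proprotein convertase Pcsk5 (-62.1 and -42.6) and 2900026A02Rik (-56.1 and -36.1).

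With long culture, 29 of the 104 genes gained in both lines (27.9%) had a gained tile within 1 kb of an internal start, and with BrafV600E 37 of 316 (11.7%) did. Of genes lost in both lines, 6 of 178 (3.4%) with long culture and 9 of 248 (3.6%) with BrafV600E had a tile there. No share over all genes with a listed interior tile was computed beside these. Genes on chromosomes outside the promoter table stayed in the counts, although no internal start could be found for them. Listed tiles near such starts numbered 207 beside 1673 others in line 1 and 491 beside 3984 in line 3 with long culture. With BrafV600E they numbered 334 beside 3369 and 429 beside 7839. Among the 12 genes with the most gains in each comparison, chosen for their tile counts, 7 with long culture and 1 with BrafV600E had a gained tile near an internal start. The difference between the comparisons was not tested. Stk32c had 5 gained tiles in line 1 and 7 in line 3 with means of 42.9 and 46.6 points, and 5 tiles were common to the lines. Those were adjacent, at chr7:139187801-139188800, and include the window printed above. Maneal, related to an enzyme of glycan trimming, gained 48.4 and 59.4 points over 3 tiles in each line. Wnt9b, which encodes a WNT ligand, gained 40.3 and 33.6 over 3 in each. Zdbf2, an imprinted gene, gained 30.7 and 42.3 over 4 in each, the same 4 tiles. Nkx2-2, a homeobox gene, gained 49.3 points over 4 tiles in line 1 and 57.7 over 5 in line 3, with 1 tile in common. Arhgef4 had the highest means of the 12, 62.6 and 67.8 points.

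Cyp26b1, Meis2 and Tbx15 were among the first 12 in both comparisons. With long culture Cyp26b1 gained 38.8 points over 4 tiles in line 1 and 60.1 over 7 in line 3. Meis2 gained 59.3 over 2 tiles and 67.3 over 6, and Tbx15 31.9 over 3 and 38.1 over 7. The remaining genes were Epb41l3 (34.6 and 35.9), Zbtb46 (32.6 and 31.2) and Heyl, a target of Notch signalling (33.7 and 29.7). With BrafV600E the interiors of Epb41l3, Zbtb46 and Heyl did not have a single direction over both lines: Heyl, for example, had a mean of -33.6 points in line 1 and 26.2 in line 3.

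The 8 genes with the most interior losses with long culture had fewer tiles in common between the lines. Dnah17, a dynein heavy chain gene, lost at 4 tiles in line 1 and 8 in line 3 with means of -46.7 and -55.3 points. Pde11a, a cyclic nucleotide phosphodiesterase gene, lost 75.2 and 68.1 points on average over 2 tiles in each line, at different tiles. Plch2, a phospholipase C gene, lost 56.4 and 54.8 over 3 and 4 tiles, 2 of them common. Dclk1, known as a marker of tuft cells, lost 63.5 and 55.1 over 2 tiles in each line, 1 of them common. With BrafV600E, Dclk1 had gains in line 1, with a mean of 66.6 points over 3 tiles, and no listed interior tile in line 3. They also included Cacna2d3 (-57.3 and -63.0, at different tiles), Gsg1l (-57.9 and -53.8) and Fam155a (-59.5 and -50.4).

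The 6 genes with the most listed interior tiles showed the difference between the lines within single genes. Camta1, which encodes a calmodulin-binding transcription factor, had 78 tiles. With BrafV600E it had 11 gains and 5 losses in line 1 but 13 gains and 33 losses in line 3, and with long culture 10 losses and no gain in line 1 but 11 gains and 13 losses in line 3. Rbfox3, a neuronal splicing factor gene with 55 tiles, had 7 gains and 4 losses with BrafV600E in line 1, and 6 and 32 in line 3. With long culture it had 4 and 9 in line 1, and 17 and 2 in line 3. Tenm3 had 52 tiles, Prdm16 48, Wwox 43 and Grip1 39. With BrafV600E, losses outnumbered gains in line 3 in all 6 genes, whereas in line 1 gains outnumbered losses in Camta1, Rbfox3, Tenm3 and Prdm16.

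The interior of a gene and its own ends often went different ways. With BrafV600E in line 1, 872 genes had listed tiles both in the interior and within 5 kb of their ends, and of the unmixed ones 55.4% had 1 direction at both. The values were 55.0% in line 3, and 40.8% and 56.2% with long culture. No share for interiors and ends of unrelated genes was computed beside these. Tiles near gene ends were more often gains than interior tiles in each table, as given above, and the counts make no allowance for that. Among genes that differed, loss inside with gain at the ends was the more frequent in each table: 177 genes against 81 and 299 against 130 with BrafV600E, and 144 against 42 and 276 against 62 with long culture. Ush1c, Fbln1 and Lrp4 did so with BrafV600E, with interior means of -70.3, -43.2 and -60.0 points in line 1 and end means of 56.0, 47.9 and 30.7. Cacna2d3, Gsg1l and Fam155a did so with long culture. For Cacna2d3 in line 3, the interior mean was -63.0 points over 2 tiles and the end mean 58.2 over 9. Ror2 had the opposite pattern in line 1 with BrafV600E, with 6 interior gains beside 1 gain and 5 losses at its ends, whose mean was -51.4 points.

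In 16 genes the interior went opposite ways in the 2 comparisons in both lines, and all but Hoxd3, a homeobox gene, rest on 1 tile in some line or comparison. The interior of Hoxd3 lost at 4 and 8 tiles with BrafV600E, with means of -46.1 and -53.7 points, and gained at 2 and 3 tiles with long culture, with a mean of 57.1 in both lines. A tile at chr2:74738801-74739000 lost 24.0 and 25.8 points with BrafV600E and gained 66.8 with long culture in line 3. Vit lost 54.0 points with BrafV600E at 1 tile in line 1 and 58.9 on average over 4 in line 3, and gained 67.2 and 83.3 with long culture at 1 tile that both lines listed. Klf12, a zinc finger transcription factor gene, gained 42.6 and 55.1 with BrafV600E and lost 80.9 and 85.0 with long culture. Plcg2, a phospholipase C gene, gained 38.4 and 46.8 with BrafV600E and lost 54.3 and 64.7 with long culture. Neither Klf12 nor Plcg2 had a tile common to the lines with long culture.

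Only 93 interior tiles were listed in all 4 tables. Of these, 37 gained in all 4 and 7 lost in all 4. Another 5 gained with BrafV600E in both lines and lost with long culture in both, and 3 did the reverse. The tile of Meis2 at chr2:116061001-116061200 gained 61.4, 66.3, 69.7 and 69.4 points in the order BrafV600E line 1, BrafV600E line 3, long culture line 1, long culture line 3. The tile of Cyp26b1 at chr6:84586001-84586200 gained 49.4, 46.0, 46.8 and 74.9. Eml1 had a tile at chr12:108503201-108503400 that gained 75 and 62.5 with BrafV600E and lost 68.9 and 66.7 with long culture. A tile of Gcnt2, which encodes a glycan-branching enzyme, lost 53.9, 57.6, 84.4 and 48.1 points.

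Genes of 12 pathway and cell type lists were counted in the same way, for genes with a listed interior tile. They name 967 genes, and 44 appear on several lists. Beside each count stands the background given above: 32% of genes with an interior held a listed tile, and 7.57% and 5.94% of those were gained or lost in both lines with BrafV600E, and 2.49% and 4.26% with long culture. Of 112 transcription factor genes with long gene bodies, 96 (85.7%) held a listed tile. That list was chosen for long genes, and long genes held more listed tiles, as given above. Gene length was not matched for any list, so the 85.7% cannot be read against the 32%. The lists were also drawn up with earlier results of these data known. With BrafV600E 9 gained and 6 lost in both lines, and with long culture 5 gained and 6 lost. Ets1, a target of MAPK signalling, gained 86.8 and 64.3 points with BrafV600E, and Nr4a3, a nuclear receptor gene, gained 48.8 and 66.8. Satb1, a chromatin organiser, gained 31.4 and 32.4 with long culture. The median difference over the tiles of this list was 35.6 points in line 1 and -29.2 in line 3 with BrafV600E, beside 30.0 and -34.1 over all interior tiles.

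Of 67 genes of receptor kinases, RAS and MAPK signalling, 35 held a listed interior tile. With BrafV600E 5 gained and 3 lost in both lines, and 1 had opposite calls. Map3k1, an upstream kinase of the JNK and MAPK cascades, gained 84.3 points over 3 tiles and 27.7 over 2. Spred2, an inhibitor of RAF activation by RAS, gained 39.6 and 40.0 at 1 tile in each line that was not the same tile. Fgfr2 lost with BrafV600E as given above and lost 47.4 and 37.5 points with long culture at 1 tile in each line. Fgfr1 lost 47.9 and 44.0 with long culture. Over the list, 1 gene gained and 2 lost in both lines with long culture, and 2 had opposite calls. Neither Fgfr1 nor Fgfr2 had a tile common to the lines with long culture.

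Of 68 genes of the WNT pathway and planar polarity, 49 held a listed tile, with 5 gained and 2 lost in both lines with BrafV600E and 2 gained and 3 lost with long culture. Gsk3b, a kinase that marks beta-catenin for destruction, gained 44.7 and 73.1 points with BrafV600E over the same 2 tiles. Daam2, a formin of the WNT pathway, lost 59.3 and 37.6 at 1 tile in each line that was not the same tile. With long culture Axin1, the scaffold of the destruction complex, lost 30.8 and 34.4, Tcf7l2, a transcription factor that beta-catenin binds, lost 26.7 and 44.0, and Lgr6, an R-spondin receptor, gained 44.0 and 56.6. In none of Axin1, Tcf7l2 and Lgr6 was a listed interior tile common to the lines with long culture. Of 52 genes of TGF-beta, BMP and Hedgehog signalling, 30 held a listed tile, and with BrafV600E 4 gained and 1 lost. Smad6, an inhibitory SMAD, gained 34.4 and 60.4 over 3 tiles in each line. Gli3, a transcription factor of Hedgehog signalling, gained 50.0 and 44.7 at 1 tile.

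Of 48 genes of intestinal epithelial identity with an interior, 31 held a listed tile. With BrafV600E 4 gained and 2 lost in both lines. Hopx, expressed in intestinal reserve stem cells, gained at 2 tiles in line 1 (80.6 and 81.9 points) and at 4 in line 3, from 22.3 to 98.3. Ephb2, a receptor that positions cells along the crypt, gained 48.1 and 44.5. Cdx1, an intestinal homeobox gene, gained 83.7 and 37.1 at 1 tile, and its ends gained as well in line 1, with a mean of 62.8.

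Of 88 genes of DNA methylation and histone modification, 30 held a listed interior tile (34.1%), near the 32% over all genes. With BrafV600E 2 gained and 1 lost in both lines. Chd7, a chromatin remodeller gene, gained 60.3 points in line 1 and 96.4 in line 3, and Arid5b 60.6 and 58.0. Arid1a, a subunit of the SWI/SNF remodelling complex, lost 77.3 and 73.4 points at 1 tile 28.0 kb inside the gene, chr4:133707001-133707200. Cbx7, a Polycomb gene, lost 72.9 and 55.0 with long culture, at tiles that differed between the lines.

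Among structural and neuronal lists, adhesion and synaptic genes had 108 of 151 members with a listed tile, with 3 gained and 6 lost in both lines with BrafV600E and 5 and 9 with long culture. Ptprt lost 74.0 and 55.2 points with BrafV600E and Csmd2 41.1 and 52.3. Of 96 potassium and calcium channel genes, 69 held a listed tile, with 3 gained and 2 lost with BrafV600E, and 3 gained and 7 lost with long culture. Kcnma1, a calcium-activated potassium channel gene, gained 63.2 and 58.3 with BrafV600E. Of 63 collagen and ADAMTS genes, 48 held one, and 3 gained and 3 lost with BrafV600E. Col11a2 gained 49.7 and 66.2, and Col5a3, with no tile common to the lines, lost 77.8 and 59.7. Of 52 Arhgap and Arhgef genes, 30 held one, and 4 gained and none lost in both lines with BrafV600E: Arhgap27, Arhgef4, Arhgef3 and Arhgef33. Arhgef3 gained 62.5 and 86.9. With long culture 1 gained and 2 lost.

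Of 44 marker genes of other cell types (mesenchymal, immune, endothelial or neural) with an interior, 27 held a listed tile. With BrafV600E none gained and 3 lost in both lines: Itgam of myeloid cells (-52.9 and -68.0), Mbp of myelin (-67.4 and -77.2) and Pdgfrb of pericytes and fibroblasts (-49.7 and -39.0, at different tiles). Another 4 went opposite ways in the lines. Of the list's tiles with BrafV600E, 63.8% of 47 were gains in line 1 and 18.2% of 110 in line 3, beside 61.8% and 34.3% over all interior tiles. A change in the methylation of the colon cells and a change in the share of other cells cannot be told apart in these bulk libraries. Of 44 imprinted genes with an interior, 25 held a listed tile, with 1 gained and 4 lost in both lines with BrafV600E and 3 gained and 1 lost with long culture. Another 3 had opposite calls in the lines with BrafV600E. The losses with BrafV600E were Rtl1 (-38.8 and -40.4), Ddc (-79.4 and -48.5), Usp29 (-46.9 and -43.3, at different tiles) and Slc22a3 (-76.4 and -60.9). Igf2 gained with long culture, by 45.5 at 1 tile in line 1 and by a mean of 49.0 over 7 in line 3, all within 1 kb of an internal start. With BrafV600E it gained in line 1 (mean 35.0) and lost in line 3 (mean -42.4).

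Interior tiles also lay beside microRNA genes. There were 41 such genes with an interior tile within 1 kb, and for 8 of them a tile was listed in both lines of a comparison in 1 direction. Since neighbouring hairpins share tiles, these 8 rest on 5 of 38 tiles (13.2%), beside 10.2% of all 14294 interior tiles. The mature sequences of Mir128-2, Mir434, Mir432, Mir7656 and Mir7662 are given from RefSeq (GRCm38.p6), because such a tile lay within 200 bp of each hairpin. Bases 2 to 8, the seed that pairs with targets, are in capitals.
mmu-miR-128-3p: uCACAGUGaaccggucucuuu
mmu-miR-128-2-5p: gGGGGCCGaugcacuguaagaga
mmu-miR-434-5p: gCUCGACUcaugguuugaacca
mmu-miR-434-3p: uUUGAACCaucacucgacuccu
mmu-miR-432: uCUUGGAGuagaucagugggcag
mmu-miR-7656-5p: uGUGGGAUcagauagccuguua
mmu-miR-7656-3p: aCAGGCUGucugaucccacggu
mmu-miR-7662-5p: aGGGCUGAggccuggauccagc
mmu-miR-7662-3p: uGGAGCCAggcggaucagccuugc

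In the authors' deposited tables, the tile 36 bp from Mir128-2, which lies within Arpp21, gained 63.6 and 52.2 points with BrafV600E at chr9:112118401-112118600 and was not listed with long culture. Another tile there, 290 bp from the hairpin, gained 72.1 with long culture in line 3 alone. The tile at chr12:109594601-109594800 in the span of the imprinted gene Rtl1 lies between Mir434 and Mir432, 2 bp from the first and 156 bp from the second. It lost 39.8 and 45.2 points with BrafV600E. A tile in the same span that overlaps Mir337 lost 35.6 with BrafV600E and gained 57.6 with long culture, both in line 3 alone. The tile 29 bp from Mir7656, within Slc9a9, lost 75 and 27.3 points with long culture and 56.7 with BrafV600E in line 1. The tile 167 bp from Mir7662, within Tspan15, lost 32.5 and 67.1 points with long culture and gained 96.2 with BrafV600E in line 3. No 2 of the printed sequences share a seed.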

How the data were processed

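The data were 8 tables, a gain and a loss table for each of 4 within-line comparisons of reduced representation bisulfite libraries. Columns hold, per the file headers, the position of a 200 bp tile, the authors' p-value and q-value, and their methylation difference in percent. The submitters' processing notes name methylKit 1.7.4, Bismark 0.14.3, FastQC 0.11.7, Trim Galore 0.4.4 and the build GRCm38 (mm10). Tool settings, the coverage minimum and read depth were not given in the sources used. Tiles were placed against 20665 autosomal protein-coding genes of a RefSeq table (GRCm38.p6, symbols and spans without strand; exons and introns were not used here). Starts and strands came from RefSeq promoter windows, which cover 16457 genes. A tile in overlapping genes counted for each.

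No test was made, because each table compares 1 library a side and lists only differences past a threshold; shares have exact Clopper-Pearson 95% intervals. Means over tiles are of the authors' differences. Named genes were the first 12 gained and 8 lost in both lines per comparison, ranked by tile count in the line with fewer tiles, ties by the mean nearer 0; the 6 genes with most tiles; up to 4 members of each list; up to 4 opposite between comparisons; and up to 6 opposite to their ends. Some genes that this rule names are not reported here. The printed promoters and microRNAs, the tiles listed in all 4 tables, and values of these genes in the other comparison were chosen after the values were seen. The members and lists were chosen with earlier results of these data known, and 17 list symbols had no match. Alternatives were a difference of at least 40 points, q under 0.001, distances of 2 and 10 kb, ends of every gene type, merging within 500 bp, 2 or more tiles per gene, and omission of a line; other distances to internal starts were added after seeing the data. Python 3.11.15, pandas 2.3.3, scipy 1.17.1 and matplotlib 3.10.9 were used. The placing of tiles was tested on 1498 simulated tiles around genes, of which 0 were placed wrongly.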

Additional observations from a re-analysis of the deposited data

Results flagged for a closer look

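In both comparisons, gains were the majority in 1 line and losses in the other. With BrafV600E, 61.8% of listed interior tiles were gains in line 1 and 34.3% in line 3. With long culture, 29.8% were gains in line 1 and 59.8% in line 3. The difference between the lines was not tested, since each line has 1 library a side. With long culture the lines also differ in time, at 12 and 14 months, and the number of listed tiles differs in both comparisons; the part of either in the result was not tested.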

How the results depend on the processing

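No paired analysis was possible because the deposited tables are already paired differences within a line, listed only past 20 points, and an exact sign-flip test over 2 lines cannot give a p below 0.5. The share of gains in each table stayed on its side of 50% under the 6 alternatives that recompute it (40 points, q under 0.001, 2 kb, 10 kb, ends of every gene type, merging), the nearest being 52.9% for long culture in line 3 after merging within 500 bp. Requiring 40 points or more gave median gains of 58.3 and 60.7 points and median losses of -57.3 and -59.6 with BrafV600E in lines 1 and 3, and gains of 55.4 and 56.4 and losses of -59.5 and -60.0 with long culture, by its construction. It also gave 84.3% (BrafV600E) and 72.3% (long culture) of shared tiles with 1 direction, 66 genes gained with long culture in both lines, and 27.9% of listed tiles in interiors. With q under 0.001, median gains with BrafV600E were 49.2 and 51.4, median losses -50.6 and -50.0, and median losses with long culture -52.1 and -49.2. Of tiles shared by the lines 79.1% had 1 direction with BrafV600E, 55.7% of tiles shared by the comparisons did in line 1, 82 genes were lost with long culture, and 25.3% of tiles were interior. A distance of 2 kb gave median losses of -46.7 and -47.2 with BrafV600E, a median gain of 40.3 with long culture in line 1, 179 genes gained with long culture, and 34.4% of tiles in interiors. At 10 kb the losses with BrafV600E were -46.4 and -48.4 and 21.8% of tiles were interior, and with ends of every gene type avoided -47.7 and -48.0 and 23.5%. Merging within 500 bp gave -46.5 in line 1, 69.9% and 64.3% with 1 direction, and 31.2% in interiors. At least 2 tiles per gene and line left 80 genes gained and 42 lost with BrafV600E, and 27 and 15 with long culture. A single line called 960 to 971 genes gained and 644 to 1511 lost with BrafV600E, 265 to 943 and 803 to 814 with long culture, and leaving out a line put 25.3% to 26.9% of tiles in interiors. Otherwise the cause was not tested. The shares near internal starts, with settings chosen after seeing the data, lay between 58.2% and 91.5% over the 4 tables at 500 bp, 2 kb or 40 points. No gene named for 1 direction changed sign where both lines kept a tile, and 91 values had a line with no tile left. The mean over lines changed sign under at least 1 alternative for all 6 genes named for most tiles, which have no single direction. Read depth is unknown, so how firmly any 1 tile was measured cannot be said.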
